A study of Mus musculus with 6 samples.

Results

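A set of 25 autosomal regions stood at 75% methylation or less in both samples of uncultured mouse bone marrow and at 85% or more in both samples after 4 days and in both samples after 7 days of culture with Flt3L. They were found among 43426 eligible autosomal regions, out of 69246 regions in the whole series. A region was a run of 3 or more listed cytosines whose neighbours lay at most 100 bp apart, and it was eligible if it lay on chromosomes 1 to 19 and had 15 or more reads, summed over its cytosines, in each of the 6 samples. Levels are percentages, methylated reads over all reads of the region. Members were selected on the levels of all 6 samples, so the difference between day 0 and the later days is a description here and carries no test.

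The samples were C57BL/6J bone marrow cells, all labelled male, assayed by reduced representation bisulfite sequencing, which reads cytosines near the cut sites of restriction enzymes (here MspI and TaqI). There were 2 samples before culture (day 0, replicates 2 and 3), 2 at day 4 labelled as common myeloid progenitors (replicates 1 and 2) and 2 at day 7 labelled as bone marrow derived dendritic cells (replicates 1 and 4). The later samples came from medium with supernatant of an SP2/0 line transfected to secrete Flt3L, and all live cells were taken at both times, so each level is an average over a mixture of cells. The assay reads DNA, so neither cell type could be checked against expression of its markers, and a change of level in given cells cannot be told apart from a change in the mixture.

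Methyl groups are placed on cytosines of CpG sites by DNA methyltransferases, which add new marks and copy existing ones after replication, and they are lost when copying fails or when TET enzymes oxidise them. In blood cells most of the genome outside CpG islands is highly methylated, while enhancers and other regulatory DNA often sit at intermediate levels that differ between lineages. A rise from an intermediate to a nearly full level is the change looked for here. Positions are on the mm9 build, and no gene is named because gene positions on that build were not used here.

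Reads at listed cytosines ranged from 3641141 in day 7 replicate 4 to 10242334 in day 4 replicate 1. Day 7 replicate 4 was the shallowest in the eligible regions too, with a median of 27 reads per region against 56 to 87 in the other 5 samples. The day 7 libraries also stood apart on the sex chromosomes. Mean depth of X cytosines relative to autosomal ones was 0.667 and 0.651 for the day 0 pair, 0.684 and 0.688 for the day 4 pair and 1.01 and 1.07 for the day 7 pair, although every sample carries the label male. All members are autosomal, and whether the origin of the day 7 cells bears on them was not tested. With the 2 thresholds for day 7 dropped from the rule, 102 regions were found in place of 25.

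Across the members the level was intermediate at day 0 and high at both later times in every case, as the rule requires. The medians over the 25 regions were 72.2% and 70% in day 0 replicates 2 and 3, 91.0% and 90.5% in day 4 replicates 1 and 2, and 91.3% and 94.4% in day 7 replicates 1 and 4. Most members started just below the ceiling. In 19 of them both day 0 levels lay between 60% and 75%, 6 had at least 1 day 0 level below 60%, 1 had a day 0 level below 50%, and 0 had both below 60%. The rise of the group mean to day 4 ran from 16.6 to 46.3 points with a median of 22.3, and that to day 7 ran from 15.1 to 46.3 points with a median of 24.96.

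**Figure D1:**
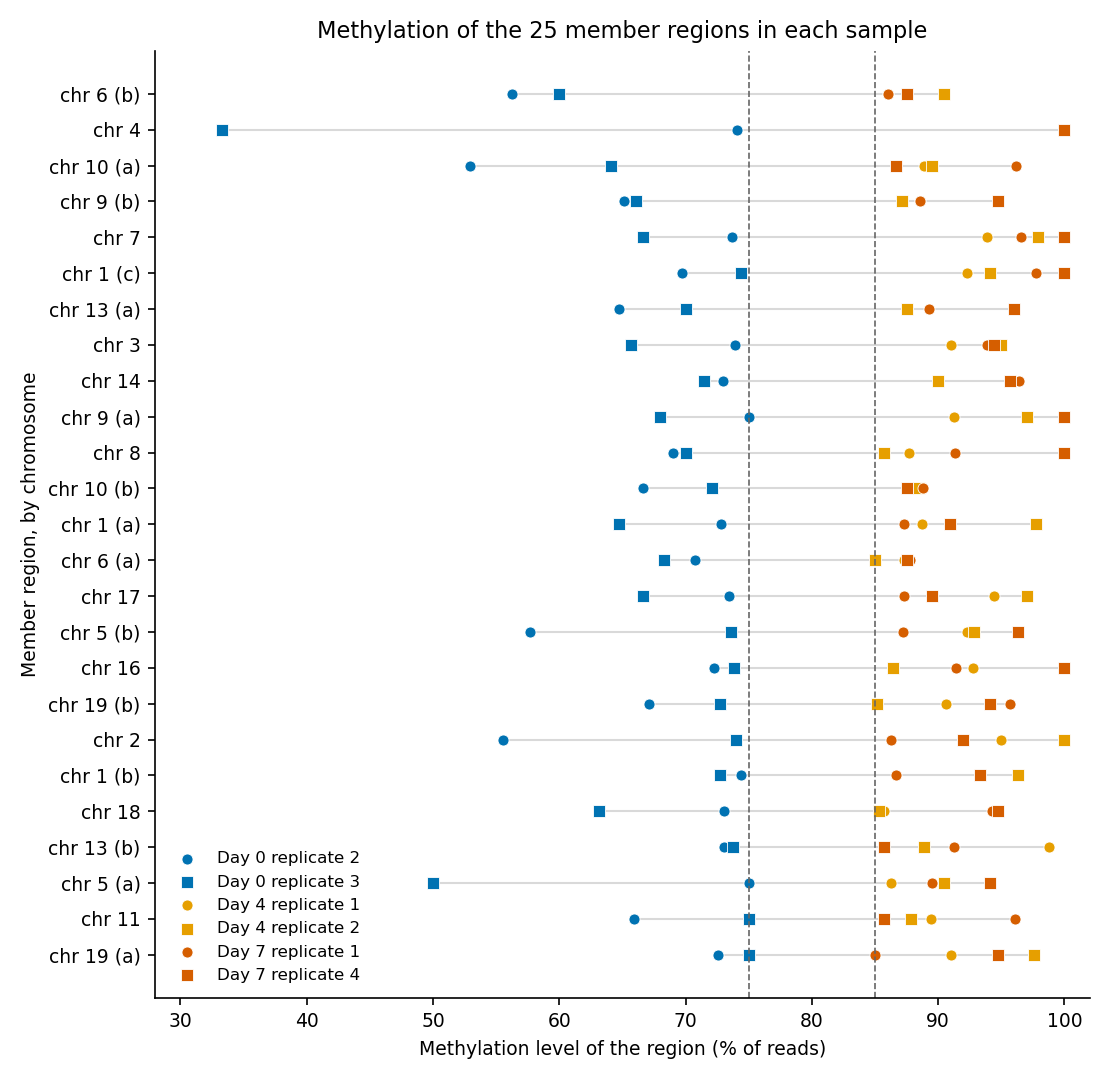
Methylation level (percent of reads, x axis) of each of the 25 member regions (rows, named by chromosome and ordered by the gap between the highest day 0 level and the lowest later level) in each sample. Points are single samples, blue for day 0, yellow for day 4 and orange-red for day 7, and dashed lines mark 75% and 85%. Most blue points sit close below 75%, and the chromosome 4 region at 33.3% in day 0 replicate 3 is the lowest.

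Members close to a threshold were common. The higher day 0 level lay within 2 points of 75% in 15 members, and 4 of the 25 stood at exactly 75% in a day 0 sample. The lowest later level lay within 2 points of 85% in 13 members, and 8 members were within 2 points of both limits. On the other side, 524 eligible regions missed exactly 1 of the 6 thresholds, of which 31 missed it by 2 points or less. The missed threshold was that of day 0 replicate 2 in 297 of these and that of day 0 replicate 3 in 114, and the later samples accounted for 23 to 32 each.

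The 25 regions were spread over 17 chromosomes, with 3 on chromosome 1, 2 on each of 6 others and 0 on chromosomes 12 and 15. The closest 2 members lay 4881062 bp apart, so no member neighbours another. They held 96 cytosines in all, with 3 to 6 per region and a median of 4, over 20 to 168 bp.

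The widest separation was on chromosome 6, from 136825927 to 136826064 (3 cytosines). Its level was 56.2% and 60% in day 0 replicates 2 and 3, 86.0% and 90.5% in day 4 replicates 1 and 2, and 86.0% and 87.5% in day 7 replicates 1 and 4. Samples of 1 day lay within 5 points of each other there, and the lowest later sample was 26.0 points above the higher day 0 sample. The region had 21 reads in day 4 replicate 2 and 16 in day 7 replicate 4, where the 95% Wilson interval was 64.0% to 96.5%. Its cytosine at 136825976 was at 63.6% in day 7 replicate 1, against 62.5% and 64.7% on day 0. Only the cytosine at 136826064 had both day 0 samples below all 4 later ones.

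The region with the largest change of the means was on chromosome 4, from 10618452 to 10618486 (3 cytosines). Day 0 replicate 2 had 74.1% and replicate 3 had 33.3%, and all 4 later samples had 100%. The rise of 46.3 points is thus an average over day 0 samples that differed by 40.7 points, and it is the only member at 100% in every later sample. There were 0 unmethylated reads of 15 in day 7 replicate 4 and of 27 in replicate 1. Unmethylated shares of up to 20.0% and 11.1% remain possible if all summed reads are separate molecules. Each cytosine had 5 reads in day 7 replicate 4 and 9 in replicate 1, so the molecules may be fewer and these limits too low. The summed reads rest on few reads per cytosine, since no cytosine of the region had more than 9 reads in day 0 replicate 2 or 5 in replicate 3. The first of its cytosines, at 10618452, was at 66.7% and 0% in the day 0 samples, and the third, at 10618486, was at 88.9% and 80%.

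Among the 25, only 8 had 20 or more reads in each sample, and only 3 had 30 or more. The deepest was on chromosome 6, from 83176654 to 83176788 (4 cytosines, 40 or more reads per sample). Levels there were 70.7% and 68.3% on day 0, 87.3% and 85% on day 4 and 87.8% and 87.5% on day 7. The groups lay apart with little spread within each day, and the difference of means was among the smaller of the 25, at 86.1% ± 1.61 at day 4 against 69.5% ± 1.72 before culture (SD, n = 2 each). Even here the 95% Wilson intervals of single samples met, with 53.0% to 80.4% in day 0 replicate 3 and 70.9% to 92.9% in day 4 replicate 2.

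A region on chromosome 13, from 55999927 to 56000050, had the most cytosines (6) and at least 35 reads in each sample. Its levels were 73.02% and 73.8% on day 0, 98.8% and 88.9% on day 4 and 91.3% and 85.7% on day 7. The day 0 samples were nearly equal and the samples of each later day differed by more. The region from 61327541 to 61327681 on chromosome 1 (5 cytosines) was at 72.8% and 64.7% on day 0, 88.7% and 97.8% on day 4 and 87.3% and 90.9% on day 7, on at least 33 reads per sample. Its last cytosine stood apart from the other 4, at 56.2% in day 4 replicate 1 and 60% in day 7 replicate 1, while the others were at 86.7% or more in those samples.

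The remaining members with 20 or more reads in each sample were on chromosomes 2, 5, 11, 14 and 16. The chromosome 2 region from 137091703 to 137091855 (5 cytosines) had the highest day 4 mean of these, with 55.6% and 74.0% on day 0, 95% and 100% on day 4 and 86.3% and 92.0% on day 7. Its day 7 samples both lay below its day 4 samples. The chromosome 5 region from 104114023 to 104114071 (3 cytosines) had 57.7% and 73.6% on day 0, 92.3% and 92.9% on day 4 and 87.2% and 96.3% on day 7. In both of these regions day 0 replicate 2 was by far the lower of the day 0 pair. On chromosome 14, from 22263432 to 22263471 (3 cytosines), the levels were 72.97% and 71.4% on day 0, 95.9% and 90% on day 4 and 96.4% and 95.7% on day 7. On chromosome 16, from 14878883 to 14879000 (5 cytosines), they were 72.2% and 73.8% on day 0, 92.8% and 86.4% on day 4 and 91.4% and 100% on day 7. On chromosome 11, from 115960325 to 115960464 (4 cytosines), they were 65.9% and 75% on day 0, 89.4% and 87.8% on day 4 and 96.1% and 85.7% on day 7. The chromosome 14 region had the widest gap of the 8, at 17.0 points between the lowest later and the higher day 0 sample, and the chromosome 11 region the narrowest, at 10.7 points.

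Along with the chromosome 4 region, a pair of shallower members had the highest day 7 means. On chromosome 1, from 191773452 to 191773506 (5 cytosines), the levels were 69.7% and 74.4% on day 0, 92.3% and 94.1% on day 4 and 97.7% and 100% on day 7. On chromosome 9, from 23786065 to 23786102 (3 cytosines), they were 75% and 68.0% on day 0, 91.2% and 97.1% on day 4, and 100% in both day 7 samples, on 17 and 15 reads. In each, the lower day 7 sample exceeded the higher day 4 sample. A further chromosome 10 region, from 80881737 to 80881898 (5 cytosines), was nearly flat between the later days, with 66.7% and 72.1% on day 0, 87.5% and 88.5% on day 4 and 88.8% and 87.5% on day 7.

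Samples of a day also differed from each other among the members. The median difference between the 2 samples was 5.60 points on day 0, 2.61 on day 4 and 3.59 on day 7, and the largest was 40.7, 9.89 and 10.4 points. The rule bounds the later samples to a band of 15 points and the day 0 samples only from above. Day 0 replicate 3 was the lower of the pair in 11 members and the higher in 14. The day 7 mean was above the day 4 mean in 16 members (64%) and below it in 8. It was above in 63.1% of all eligible regions, close to the share of the members. Where both day 0 samples lay between 50% and 75%, the share was 58.5%. In 7 members both day 7 samples were above both day 4 samples, and in 3 both were below.

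Within the members the difference, which the rule set for the whole region, was seen at their single cytosines. In all 25 regions each cytosine had a mean over the 2 day 0 samples below its mean over the 4 later samples. Of the 96 cytosines 61 had 5 or more reads in each sample, and in 48 of these (78.7%) both day 0 samples lay below all 4 later ones. These are the reads that the rule summed, so the counts largely follow from the choice and carry no test. No such share is given for other regions. The cytosines of a region are also not separate evidence, since a read that covers several of them is counted at each. The range of day 0 means among the cytosines of a member had a median of 22.4 points, against 7.92 points for the later means, and it reached 51.1 points in the chromosome 4 region.

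The number of members was set against what noise would give. With 1 level per region in all 6 samples, equal to its pooled level, and with binomial counting of the summed reads, 1.24 of the 43426 regions were expected to pass the rule, against 25 found. That calculation leaves out known features of these data. Samples of 1 group differed by more than binomial counting of the summed reads, by an intraclass correlation of 0.0228. Reads counted at several cytosines can add to this correlation, and their part in it was not separated. With this spread 9.06 were expected. The level also differed between samples across all regions. In the 19536 eligible regions with a pooled level between 60% and 95%, the mean level was 82.4% and 79.6% on day 0, 85.01% and 82.6% on day 4 and 85.1% and 83.3% on day 7. With 1 offset per sample on the logit scale for this, and no added spread, 6.00 were expected. With both, 25.5 were expected, beside the 25 found. Estimating both from the 19536 regions alone gave 28.97.

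Reads shared between cytosines bear on the same number. The reads of the deepest cytosine of a region can stand for its number of molecules. On that assumption, with no added spread, 24.96 members were expected without offsets and 54.9 with them. This count of molecules is a lower one, since reads that cover other cytosines only are left out, and it put more regions than were found into each of the other 5 mixed patterns. At their deepest cytosine the members had a median of 6 reads in day 7 replicate 4, and 24 of 25 had under 10 there. Binomial intervals on summed reads, whose median width over members and samples was 20.7 points, are for that reason too narrow. In 0 members did the intervals of both day 0 samples lie wholly below those of all 4 later samples. What the offset between day 0 and later samples stands for, in the cells or in the libraries, cannot be told apart, because each day has its own samples.

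The other low and high patterns can be set beside their expected numbers too. With low as 75% or less in both samples of a day and high as 85% or more in both, 14 regions were low, low and high at days 0, 4 and 7, where 2.11 were expected by counting noise alone and 18.9 with offsets and spread. The pattern low, high and low held 6 regions, against 1.03 and 5.32 expected. The mirror of the members, high at day 0 and low at both later days, held 1 region, against 0.967 and 1.10. Patterns that begin high were also rare, with 10 regions high, high and low (2.69 and 4.30 expected) and 2 high, low and high (1.33 and 6.61). Constant patterns held far more, with 2314 regions at 85% or more in all 6 samples and 23776 at 75% or less in all 6. For the 2314 regions, 4003 were expected by counting noise alone and 2749 with offsets and spread, both above the number found. For the 23776 regions the expected numbers were 24371 and 23802.

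**Figure D2:**
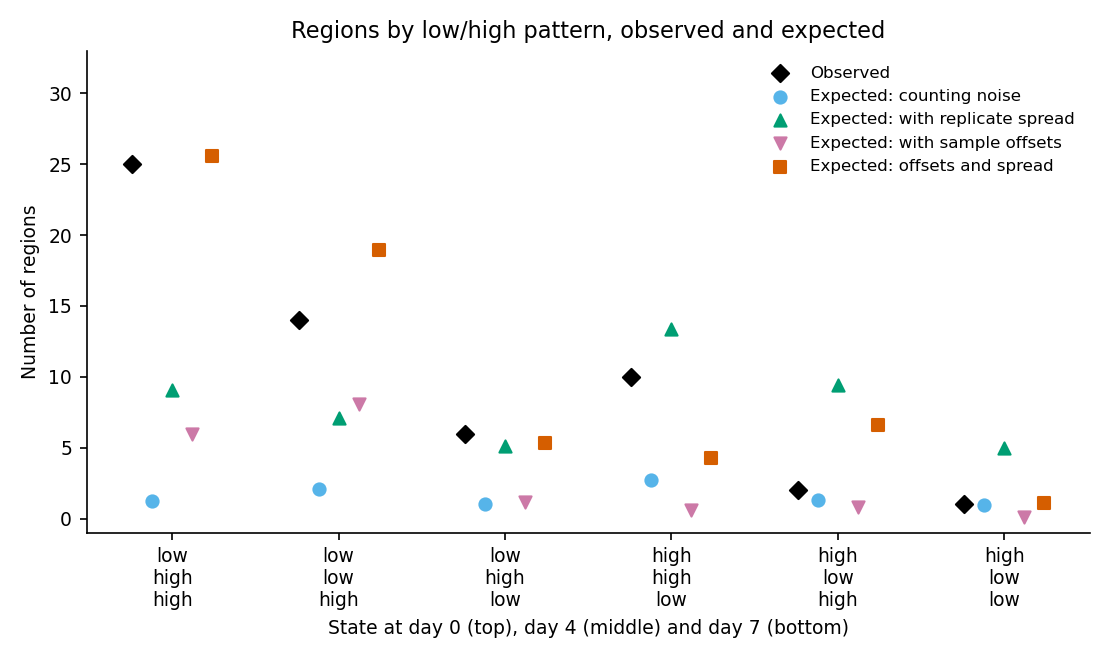
Number of eligible regions (y axis) in each of the 6 patterns of low (75% or less in both samples of a day) and high (85% or more in both) that are not constant over the 3 days. Black diamonds are the regions found and coloured points the numbers expected under 4 sets of assumptions. For low, high and high the 25 found stand far above the 1.24 expected from read counting and beside the 25.5 expected with offsets and spread.

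Depth moved with membership. The fewest reads in any sample were under 20 in 17 of 25 members (68.0%), against 27.3% of eligible regions. Of the 11858 eligible regions with 15 to 19 reads in their shallowest sample 0.143% were members, against 0.0386% of the 12938 with 20 to 29 reads and 0.0316% of the 9496 with 30 to 49. None of the 9134 regions with 50 or more was a member, where 0.574 were expected with offsets and spread. In 20 of 25 members the shallowest sample was day 7 replicate 4. In the shallowest class 17 members stood against 11.7 expected with offsets and spread, and in the next 5 stood against 9.79.

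**Figure D3:**
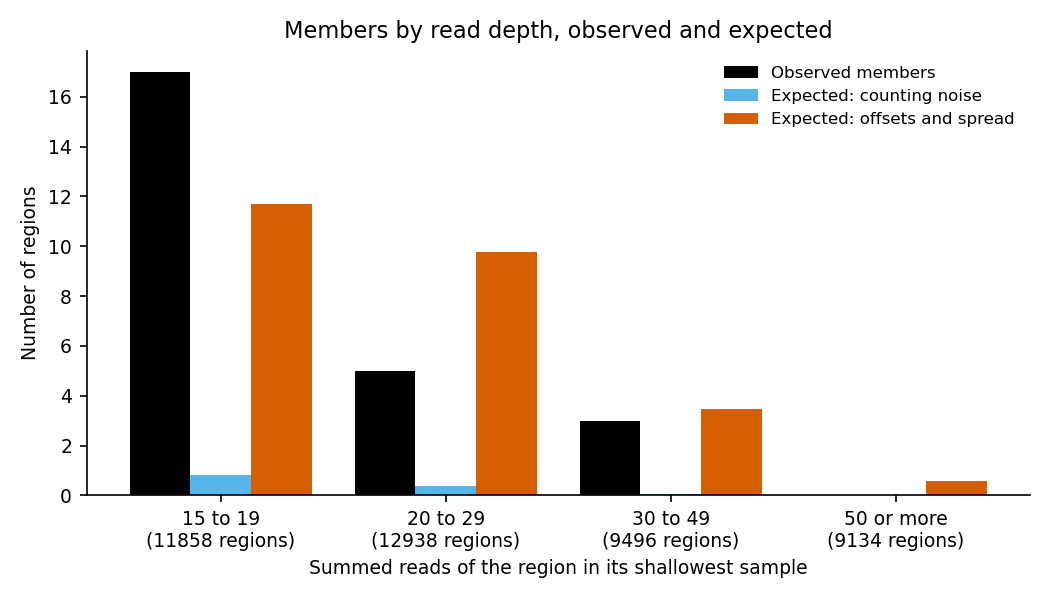
Number of members found (black), expected from counting noise (blue) and expected with sample offsets and spread between replicates (orange-red), by the summed reads of the region in its shallowest sample (x axis). Members fall from 17 in the shallowest class to 5, 3 and 0, and in each class the blue bars stay below 1.

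Leaving 1 sample out of the rule shows levels that took no part in the choice. Without day 0 replicate 3, 139 regions met the other 5 thresholds, and in that sample their median was 83.9%, with 18.0% of them at 75% or less. Without day 0 replicate 2 there were 322 such regions, with a median of 86.2% in that sample and 7.76% at 75% or less. Regions chosen as low in 1 day 0 sample were most often above 75% in the other. With offsets and spread 16.6% and 9.35% were expected to pass. The levels and offsets behind the expected shares given here were fitted on all 6 samples, so the sample left out entered them. Without a later sample, 43.9% (day 4 replicate 1), 43.9% (day 4 replicate 2), 52.1% (day 7 replicate 1) and 49.02% (day 7 replicate 4) of the regions passed in the sample left out, against 47.9%, 39.0%, 55.5% and 51.9% expected.

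**Figure D4:**
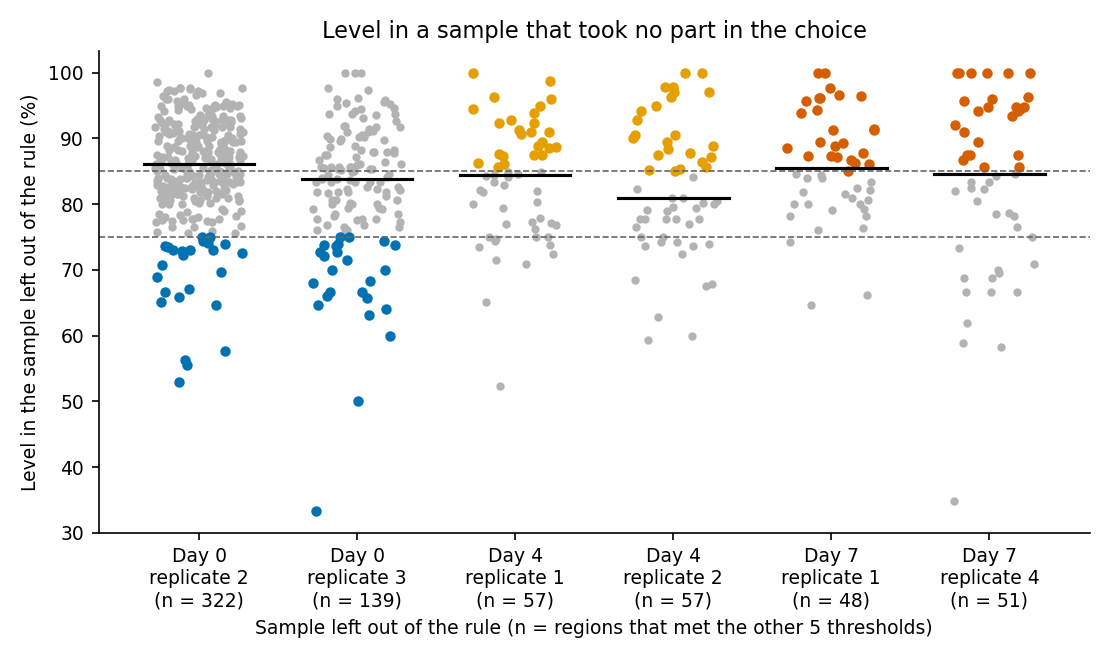
Level in the sample left out (percent, y axis) of all regions that met the other 5 thresholds, 1 column per sample left out. Coloured points are the 25 members, grey points the regions that failed in that sample, black bars the medians, and dashed lines 75% and 85%. In both day 0 columns most points lie above 75%, with medians of 86.2% and 83.9%.

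Regions chosen without day 7 show its levels where they took no part in the choice. Of the 102 regions at 75% or less in both day 0 samples and at 85% or more in both day 4 samples, 25 stood at 85% or more in both day 7 samples and are the members, 6 were back at 75% or less in both, and 71 lay elsewhere. Their median level was 69.8% on day 0, 89.6% on day 4 and 84.4% on day 7. Such a middle level would also follow from a choice on noisy day 0 and day 4 values alone, and how far was not computed. The share that stayed in the band in both day 7 samples was 24.5%, against 25.7% expected with offsets and spread. Chosen without day 4, 186 regions were low at day 0 and high at day 7. Their median was 80.5% at day 4, and 13.4% of them were high in both day 4 samples, against 14.5% expected. Both expected shares were fitted on the reads of all 6 samples, the left out ones included, so a close match is partly built in.

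Regions with a like start mostly did not fill. Both day 0 samples stood between 50% and 75% in 2922 eligible regions, among them 24 of the 25 members. Of these, 1805 (61.8%) reached 85% in 0 later samples, 689 in 1, 293 in 2, 111 in 3 and 24 (0.821%) in all 4. Their median rise was 5.57 points to day 4 and 7.53 points to day 7, against 22.3 and 24.96 points in the members, whose choice required at least 10. Medians over the 2922 regions were 67.1% and 65.1% on day 0, 72.8% and 70.1% on day 4 and 74.1% and 73.3% on day 7. The members lay within the upper part of a broad cloud, where other regions reached levels as high.

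**Figure D5:**
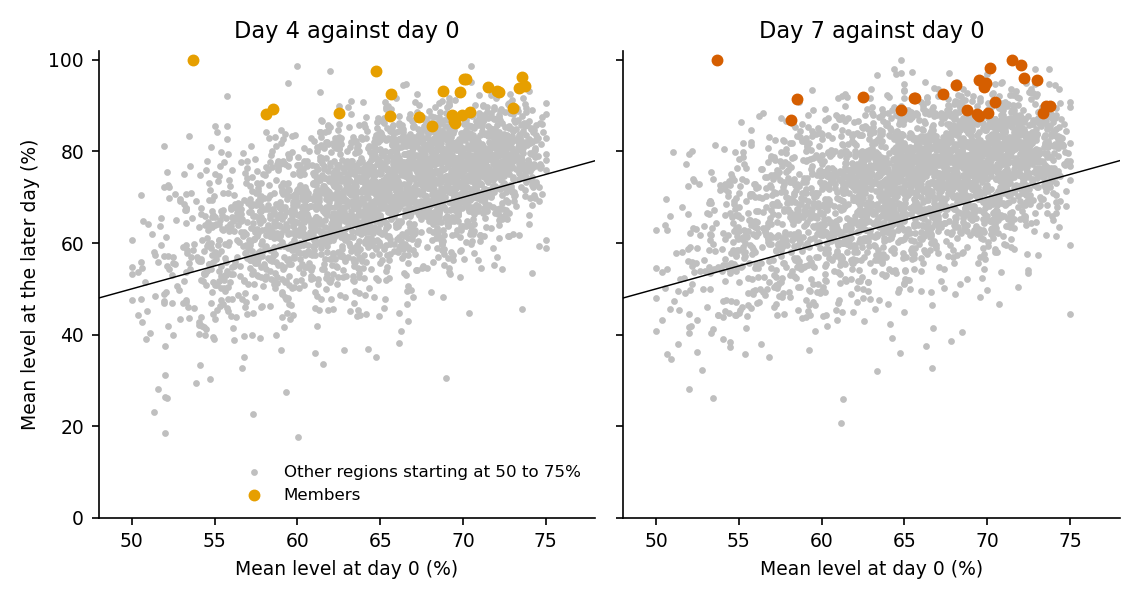
Mean level at day 4 (left) and day 7 (right) on the y axis against the mean level at day 0 on the x axis, both in percent, for the regions with both day 0 samples between 50% and 75% (grey) and the 25 members (coloured). The line marks equal levels. Most grey points lie above it, by a median of 5.57 points at day 4 and 7.53 points at day 7, and the members lie in the upper part of the cloud among other regions as high.

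The members were short. Their median span was 73 bp, against 124 bp in the 2922 regions with a like start and 119 bp in all eligible regions, and 44.0% of them had the minimum of 3 cytosines, against 33.4% and 18.4%. They held a median of 4.84 cytosines per 100 bp, against 3.79 and 6.12. Short regions gather fewer reads, and the members had a median of 251 reads over the 6 samples, against 295 and 395. These are descriptions, and the part of depth in them was not tested.

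Few cytosines near the members were listed. Only 11 of 25 had any more than 100 and up to 2000 bp away, 43 in all. Over their summed reads the level was 73.5% and 70.8% on day 0, 76.9% and 75.2% on day 4 and 79.4% and 82.1% on day 7. The day 4 mean was 3.92 points above the day 0 mean, where the members themselves differed by a median of 22.3 points. Around the 2922 regions with a like start, flanking cytosines differed by 4.56 points and around all eligible regions by 1.48 points. With the mean of the regions' levels in place of summed reads, the difference was 4.68 points around the members, 2.22 points around regions with a like start and 0.938 points around all eligible regions. Which of the first 2 was larger thus turned with the method, and the value around the members rests on few regions. Of the 6 members with 10 or more flanking reads in each sample, 2 (33.3%) had both day 0 samples below all 4 later ones, against 11.3% of 1053 regions with a like start and 11.1% of 25673 eligible regions. Out to 5000 bp, where 19 members had listed cytosines, the difference over summed reads was 1.81 points, against 4.97 points around regions with a like start. The day 0 pair was there lowest in 13.3% of the 15 members with enough reads, against 13.2% of 1668 regions with a like start. The higher share around the members was thus not kept at this distance.

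The fit over the whole table called few members. Methylated and unmethylated counts of 56105 regions with 10 or more reads in each sample were fitted with edgeR's negative binomial model, and calls needed group means at least 20 points apart and an adjusted p under 0.05. For day 4 against day 0, 1 of the 25 members was called higher, the chromosome 4 region, and it was also the only call in the table (0.00178% of regions tested). For day 7 against day 0, 3 of the 25 were called higher, those starting at 10618452 on chromosome 4, at 191773452 on chromosome 1 and at 23786065 on chromosome 9, with 0.481% of all regions tested called higher. Both shares are of regions on all chromosomes, with the X included, while all members are autosomal. With the autosomes fitted alone, 21 of 55146 regions were called higher at day 7 against day 0. The rule used both contrasts, so nothing is read from these counts. With day 0 replicate 3, day 4 replicate 1 or day 4 replicate 2 left out, 0 members were called at day 4, and with day 0 replicate 3 or day 7 replicate 1 left out, 0 were called at day 7. The chromosome 4 difference of 46.3 points stayed the same with either day 4 sample or either day 7 sample left out, and was 25.9 points without day 0 replicate 3, so a call can be lost with fewer samples at an equal difference. With the autosomes fitted alone 1 member was called at day 7, and 1 was called there without day 0 replicate 2 or without day 7 replicate 4. The quasi-likelihood test of edgeR called 0 members in either contrast, with 20 (day 4) and 21 (day 7) at an unadjusted p below 0.05, as were 3.37% and 8.12% of all regions. Limma also called 0, with 17 and 18, beside 4.32% and 12.8% of all regions. Over the whole table these tests called 0 regions each at day 4, and 174 (quasi-likelihood) and 47 (limma) at day 7. For day 7 against day 4, 0 of 25 were called by edgeR's likelihood ratio test, 0 by its quasi-likelihood test and 0 by limma. In these tests 0, 0 and 1 members had an unadjusted p below 0.05, as did 11.4%, 7.07% and 11.1% of all regions. The likelihood ratio test called 0.396% of all regions higher, and 7 of 55146 regions with the autosomes fitted alone. The rule holds day 4 and day 7 at 85% or more and so allows no difference of 20 points between them. Nothing is read from these member counts either.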

How the data were processed

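DNA methylation was measured by reduced representation bisulfite sequencing in 6 samples, 2 per group, grouped by their titles. Bismark, Bowtie2 and the mm9 build are named per the submitters' processing notes. How reads were trimmed, deduplicated and assigned to strands, and with which versions, is not given in the sources used here. Per cytosine and sample, the deposited table gives counts of methylated and unmethylated reads and the methylated fraction, which the authors' columns show to be the first over their sum. No label ties a sample to its own animal or culture, and the p-values therefore reflect a spread that may be technical. The labels name no molecular identifiers, and intervals and limits cover counting error only.

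Members and lists were chosen with earlier results of these data known. Expected numbers are exact sums over eligible regions of binomial or beta-binomial probabilities (Python 3.11.15, scipy 1.17.1), with no simulation. Sample offsets were set so that mean levels over regions matched, and spread was estimated by moments from the 2 samples of each group. Regions were tested with edgeR 4.0.16 (R 4.3.3) by likelihood ratio over 3 contrasts in 1 fit of all 6 samples, with Benjamini-Hochberg adjustment over the whole table. Both steps were tested on simulated data. The edgeR simulation had binomial counts without added spread. Its changed regions started lower than the members and rose by more than most of them, so it does not show how well members would be called. Limma 3.58.1 on log2 ratios of methylated to unmethylated counts, made here with a pseudocount of 0.5, was an alternative. Regions given in full were, by rule, members with 20 or more reads in each sample by gap (8, under the 10 allowed), the 5 with the highest smallest read number, those called by edgeR and the 5 with the most cytosines. The widest-gap region and the chromosome 10 region were chosen after their values were seen.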

Additional observations from a re-analysis of the deposited data

How the results depend on the processing

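The number of members, 25 as reported, depended on each limit of the rule. It was 8 with a minimum of 20 reads and 3 with 30, 5 and 121 with a day 0 ceiling of 70% and 80%, 134 and 6 with a later floor of 80% and 90%, 38 with gaps of up to 200 bp, and 14 and 6 with at least 4 and 5 cytosines. A minimum of 10 reads (34), gaps of up to 50 bp (27) and the mean of the cytosines' fractions (30, of which 18 are among the 25) moved it by less than 1.5 times. With 1 sample left out of the rule it was 48 to 322, and fewer thresholds let more regions through by construction. Alternatives chosen after seeing the data left out both samples of a day, and gave 102 regions without day 7, 186 without day 4 and 4139 without day 0.

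The number expected from counting noise was 1.24. It was 0.419 and 0.0362 with a minimum of 20 and 30 reads, 9.06 with spread between samples of a group, 6.00 with 1 offset per sample and 25.5 with both. Chosen after seeing the data were offsets and spread from regions at 60% to 95% (28.97), the reads of the deepest cytosine (24.96) and those reads with offsets (54.9). Which of these assumptions holds was not tested, and the 25 found lie within the range of these values.

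The difference of the flanking cytosines, 3.92 points, was 1.81 points out to 5000 bp. Of 250 recomputed differences of single members, 4 moved by more than the spread between samples and 0 changed sign. With a sample left out no sign could change. The rule holds every day 0 sample at 75% or less and every later sample at 85% or more. The shift is then also a fixed part of the gap between the samples of a day. These counts therefore carry no test.

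Over the whole table edgeR called 1 region at day 4 against day 0. It called 2 with no minimum difference, 3 with no minimum of reads, 7 with only the groups compared, 0 with the quasi-likelihood test and 0 with limma (1889 and 2425 at an unadjusted p below 0.05), and 1 to 3 with 1 sample left out. At day 7 against day 0 it called 279, and 470 with no minimum difference, 174 with the quasi-likelihood test, 47 with limma, 23 with autosomes alone and 177 to 289 with 1 sample left out. At day 7 against day 4 it called 253, and under the same alternatives 409, 166, 63, 10 and 152 to 344. Where 1 sample was left out, the lone sample was assumed to vary like the other groups. The cause of these shifts was not tested.

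No paired analysis was possible because any 2 groups share fewer than 2 replicate numbers. Day 4 and day 0 have only replicate number 2 in common. Day 7 and day 4 have only replicate number 1 in common, and day 7 and day 0 have none. No label says that a shared number is a shared animal. Depth limits the single levels, since 17 of 25 members had under 20 reads in their shallowest sample.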
